A study of Homo sapiens with 9 samples.

Results

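Genes that restrain or report ERK signalling were followed in HCC827 cells in which hairpins had lowered CBX5. The set held 10 genes of the 60675 in the count table: the MAP kinase phosphatases DUSP4, DUSP5, DUSP6 and DUSP9, the Sprouty genes SPRY1, SPRY2 and SPRY4, the Sprouty-related genes SPRED1 and SPRED2, and ETV5. They were taken by symbol from GENCODE release 29, and all 10 were among the 13264 genes with enough counts to be tested. HCC827 is an established human lung adenocarcinoma line with an activating EGFR mutation. The cells stably carried the CBX5 hairpin G1, the CBX5 hairpin G7 or a control hairpin called NS, with 3 libraries per group. All 3 groups grew in DMEM with serum and antibiotics, and the labels name no EGFR inhibitor treatment. The design text calls the libraries biological replicates, but the labels do not say whether they came from separate transductions. If they did not, the p-values below measure only the spread within 1 stably transduced population per hairpin.

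Activated receptor tyrosine kinases such as EGFR switch on RAS, which drives the kinases RAF, MEK and ERK in turn. ERK induces genes whose products then act back on the cascade: Sprouty and SPRED proteins near the membrane, and dual-specificity phosphatases on ERK itself. Because their transcripts are induced by the pathway, several of these genes are commonly read as its output in EGFR-mutant lung cancer. ETV5 encodes an ETS transcription factor that is induced by ERK, and it is not an inhibitor. ERK phosphorylation was not measured here, and the values below are RNA levels.

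The libraries held 12701561 to 22372353 counts, and mitochondrially encoded genes took 13.37% to 19.82% of them. G7 replicate 3 had the highest of these shares and stood apart from G7 replicates 1 and 2 (chi-square per degree of freedom 22.6 and 17.9, against 1.46 between those 2), so results that rest on it are also given without it. CBX5, the targeted gene on chromosome 12, had 142, 142 and 143 CPM in G1 libraries, 205, 204 and 202 CPM in G7 libraries and 370, 377 and 361 CPM in NS libraries (CPM is the gene's count relative to the TMM-scaled library size). Every library of either hairpin thus lay below every control library. The summed level of 6 epithelial markers was 13750 to 13940 CPM with G1, 11440 to 12120 CPM with G7 and 9629 to 10600 CPM in NS. The sum hides differences between them: at an adjusted p under 0.05 in the edgeR test used below, all 6 were higher with G1. With G7 3 were higher and 3 were not called. Of all tested genes 30.4% were higher with G1 and 13.1% with G7. Of 8 mesenchymal and fibroblast markers, 7 were under 1 CPM in every library, LUM was at 0 in all, and the sum was 14.5 to 17.3 CPM with G1, 13.7 to 15.2 CPM with G7 and 15.4 to 15.9 CPM in NS. Of 6 blood and endothelial markers, 4 were under 1 CPM in every library, HBB was at 0 in all, and the sum was 57.9 to 60.8 CPM with G1, 78.0 to 82.8 CPM with G7 and 76.7 to 86.1 CPM in NS, most of it PECAM1. The part of these marker levels in the results below was not tested, and in bulk RNA fewer cells of a type and less RNA per cell cannot be told apart.

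The promoter windows of 7 of the 10 genes were matched by symbol in RefSeq (build GRCh38.p14), each from 250 bases before to 50 after an annotated start. The windows shown are those of DUSP6 and SPRY4, which both rose with G7, of 1 of the 3 annotated starts of SPRY2, which fell with G1, and of the downstream of 2 starts of SPRED2. Capitals mark matches to AP-1 sites (TGANTCA, either strand).
DUSP6, chr12:89352452-89352751, minus strand: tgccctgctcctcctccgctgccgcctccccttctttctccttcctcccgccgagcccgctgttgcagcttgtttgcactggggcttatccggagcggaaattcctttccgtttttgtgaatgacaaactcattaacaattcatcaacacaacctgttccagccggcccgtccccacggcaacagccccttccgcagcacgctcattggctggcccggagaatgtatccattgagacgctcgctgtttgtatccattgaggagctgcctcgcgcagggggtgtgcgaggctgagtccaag
SPRY4, chr5:142324198-142324497, minus strand: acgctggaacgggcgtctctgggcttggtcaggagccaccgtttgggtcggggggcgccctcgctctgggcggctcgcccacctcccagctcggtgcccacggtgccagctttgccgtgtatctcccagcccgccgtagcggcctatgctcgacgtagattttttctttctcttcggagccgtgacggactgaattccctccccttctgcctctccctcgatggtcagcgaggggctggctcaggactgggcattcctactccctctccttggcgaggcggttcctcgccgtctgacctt
SPRY2, chr13:80341077-80341376, minus strand: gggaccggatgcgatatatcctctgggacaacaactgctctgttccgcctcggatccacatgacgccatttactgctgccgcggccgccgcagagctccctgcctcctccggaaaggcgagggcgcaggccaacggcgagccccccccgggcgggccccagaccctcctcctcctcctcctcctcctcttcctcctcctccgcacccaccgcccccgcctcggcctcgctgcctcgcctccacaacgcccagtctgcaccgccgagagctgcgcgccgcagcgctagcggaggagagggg
SPRED2, chr2:65366729-65367028, minus strand: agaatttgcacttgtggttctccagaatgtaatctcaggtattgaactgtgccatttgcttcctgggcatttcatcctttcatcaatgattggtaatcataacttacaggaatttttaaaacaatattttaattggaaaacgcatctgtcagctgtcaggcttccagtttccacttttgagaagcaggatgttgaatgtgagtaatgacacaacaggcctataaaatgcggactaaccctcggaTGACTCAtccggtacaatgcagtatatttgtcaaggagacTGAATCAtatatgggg
In the 12 windows of these genes, the only matches to 6 searched motifs were the 2 AP-1 matches in the downstream SPRED2 window, TGACTCA and TGAATCA. An AP-1 match was present in 7.71% of all 35114 windows of this length. For the ERK-regulated repressor CIC only the octamers TGAATGAA and TGAATGGA were searched. Other forms of its site were not, so no window, that of DUSP6 included, was shown to be free of CIC sites. These octamers had no match in the members' windows and were present in 2.63% of all windows. The same held for the ETS site CCGGAAGT (4.14% of all windows), the cAMP response element TGACGTCA (1.85%), the E-box CACGTG (7.26%) and the CArG box (1.29%). Both strands were searched and no matches overlapped. A missing match says only that these letters are not in the window.

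Divided by exon length, DUSP4 was the most abundant of the 10 transcripts and DUSP9 the least. DUSP4 stood at 53.5 CPM per kb of merged exons with G1, 50.2 with G7 and 46.8 in NS, and DUSP9 at 1.52, 1.24 and 0.655 CPM per kb. DUSP5, DUSP6, SPRED2 and ETV5 followed DUSP4 in that order in every group, and the libraries of neighbours in this part of the order did not overlap. In NS cells SPRED1, SPRY4 and SPRY2 lay close together, at 7.34, 7.26 and 7.12 CPM per kb, and each overlapped the next in its libraries. With G1 they were spread out, with SPRY4 at 8.77, SPRED1 at 7.68 and SPRY2 at 4.87 CPM per kb, and SPRY2 then overlapped SPRY1 (5.08). With G7 the order was SPRY4 at 9.57, SPRED1 at 8.30, SPRY2 at 6.90 and SPRY1 at 5.13 CPM per kb, with no overlap between neighbours. These neighbours depend on the length used. With the longest transcript as the length, SPRY1 stood at 7.72 CPM per kb with G1, where it overlapped SPRED1 (8.16) and no longer SPRY2 (5.46). With G7 SPRY1 (7.79) and SPRY2 (7.74 CPM per kb) then overlapped, and in NS the order was SPRY4 (8.91), SPRY2 (7.99), SPRED1 (7.79) and SPRY1 (7.06 CPM per kb), each overlapping the next. DUSP6 (21.05) and SPRED2 (20.45 CPM per kb) also overlapped with G1 on that length.

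**Figure D1:**
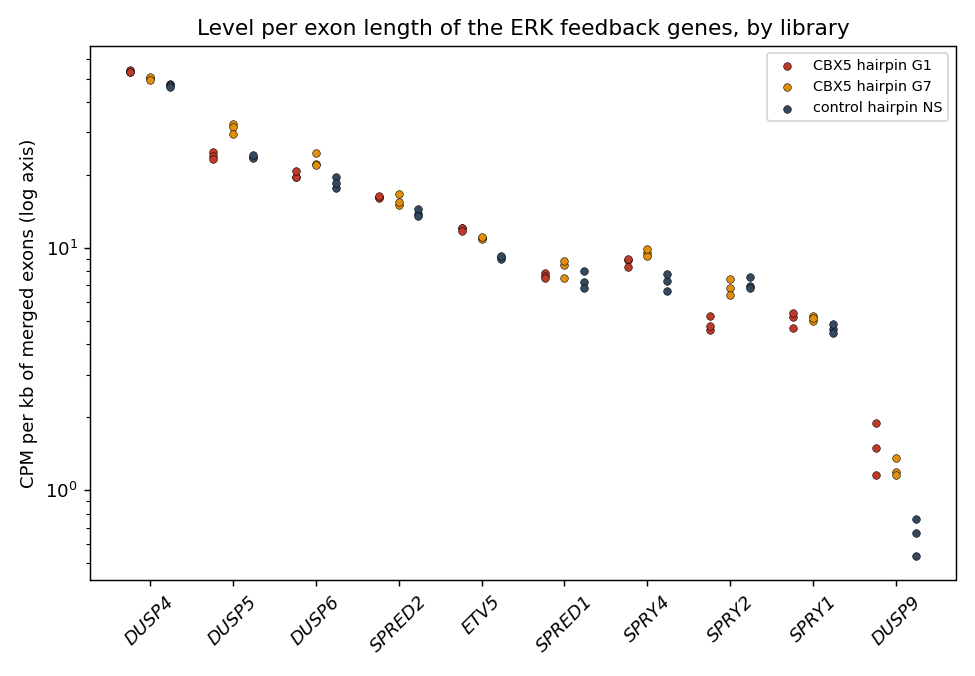
Level of each gene in CPM per kb of merged exons (log axis), with 1 point per library and the groups side by side. DUSP4 averages 46.8 to 53.5 CPM per kb and DUSP9 0.655 to 1.52, and SPRY2 averages 4.87 CPM per kb with G1, 6.90 with G7 and 7.12 in NS.

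The phosphatases remove the activating phosphates from MAP kinases, and the 4 members did not move alike. DUSP9 (chrX:153642492-153651326 in GRCh38), a mainly cytoplasmic ERK phosphatase, had 4.15, 3.21 and 5.26 CPM in G1 libraries, 3.29, 3.79 and 3.22 CPM in G7 libraries and 2.12, 1.86 and 1.49 CPM in NS libraries. Both hairpins lay above all controls, on 61 to 82 counts per G1 library, 61 to 71 per G7 library and 25 to 28 per NS library. It rose 2.31-fold with G1 (log2 change 1.21 ± 0.207 SE, adjusted p = 6.45e-05) and 1.89-fold with G7 (0.92 ± 0.211, adjusted p = 0.00414) in the quasi-likelihood test of edgeR, adjusted by Benjamini-Hochberg over all tested genes. DUSP4 (chromosome 8), a nuclear phosphatase of ERK and other MAP kinases, had 393, 386 and 386 CPM in G1 libraries, 366, 369 and 357 CPM in G7 libraries and 343, 340 and 336 CPM in NS libraries. The 3 groups did not overlap and G7 lay between the others. DUSP4 rose 1.14-fold with G1 (log2 change 0.19 ± 0.0379, adjusted p = 0.000253 in the edgeR test), while its value with G7 (0.10 ± 0.0378, adjusted p = 0.0640) was not called, except without G7 replicate 3 (0.12, adjusted p = 0.0372).

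DUSP5 and DUSP6 had their highest levels with G7. DUSP5 (chr10:110497838-110511544), a nuclear phosphatase selective for ERK, had 65.1, 62.9 and 61.2 CPM in G1 libraries, 84.7, 82.2 and 77.2 CPM in G7 libraries and 62.1, 61.3 and 63.4 CPM in NS libraries. G7 stood above both other groups, which overlapped each other. The change was 1.31-fold with G7 (log2 0.38 ± 0.0496, adjusted p = 2.15e-05) and 1.01-fold with G1 (0.02 ± 0.0509, adjusted p = 0.777) in the edgeR test. DUSP6 (chr12:89347232-89353271), the cytoplasmic phosphatase selective for ERK, had 91.2, 90.6 and 96.0 CPM in G1 libraries, 103, 102 and 114 CPM in G7 libraries and 82.0, 90.5 and 85.5 CPM in NS libraries. G7 did not overlap the other groups, and the lowest G1 library (90.6 CPM) lay just above the highest NS library (90.5 CPM). DUSP6 rose 1.24-fold with G7 (log2 0.31 ± 0.0526, adjusted p = 0.000378 in the edgeR test). With G1 the value was 0.11 ± 0.0534 (adjusted p = 0.0975 in the edgeR test), which was called without the low-count filter (0.13, adjusted p = 0.0427), without NS replicate 2 (0.14, adjusted p = 0.0447) and without G7 replicate 3 (0.11, adjusted p = 0.0474). The antisense gene AC024909.2 overlaps 1875 exonic bases of DUSP6 and was listed at 0 in all libraries. The strand setting of the counting is not given, so reads of that pair cannot be told apart.

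**Figure D2:**
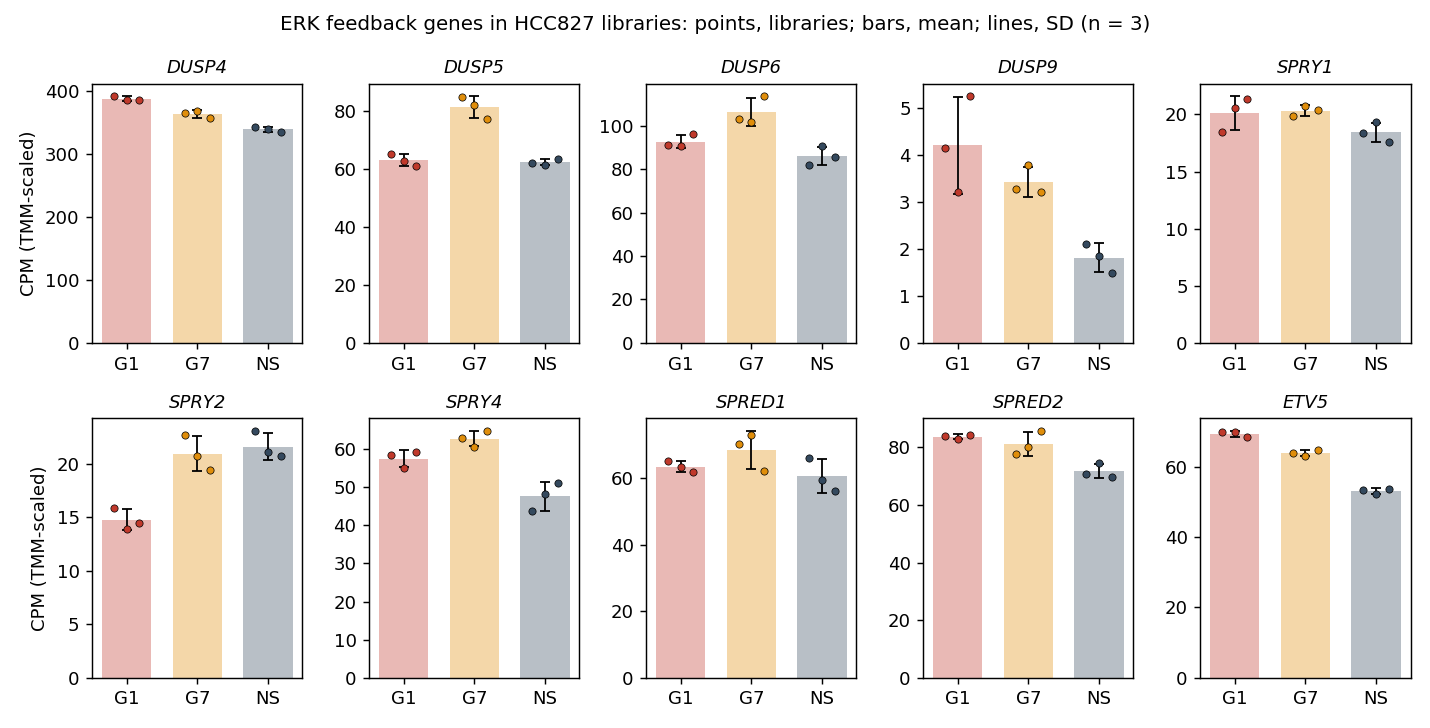
TMM-scaled CPM of the 10 genes in each library, with G1, G7 and NS from left to right, bars at the mean and lines at the SD over 3 libraries. DUSP5 and DUSP6 are highest with G7, and SPRY2 is lowest with G1. For DUSP4, DUSP6, DUSP9, SPRY4, SPRED2 and ETV5 all libraries of both hairpins lie above all NS libraries, for DUSP6 with G1 only just.

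Sprouty proteins act between the receptor and RAS, and their genes split. SPRY4 (chr5:142310427-142326455) had 58.4, 55.0 and 59.2 CPM in G1 libraries, 62.8, 60.7 and 64.9 CPM in G7 libraries and 43.7, 48.2 and 51.1 CPM in NS libraries. Every hairpin library exceeded every control library. SPRY4 rose 1.204-fold with G1 (log2 0.27 ± 0.0595, adjusted p = 0.000819) and 1.32-fold with G7 (0.40 ± 0.0585, adjusted p = 9.31e-05) in the edgeR test. SPRY2 (chr13:80335976-80340951), which also binds the ubiquitin ligase CBL, had 15.9, 13.96 and 14.5 CPM in G1 libraries, 22.7, 20.7 and 19.4 CPM in G7 libraries and 23.1, 21.1 and 20.7 CPM in NS libraries. The G1 libraries lay below all others, and G7 overlapped NS. SPRY2 fell by 0.55 on the log2 scale with G1 (a ratio of 0.684, SE 0.0846, adjusted p = 2.03e-05), while the G7 value was -0.04 ± 0.0794 (adjusted p = 0.755) in the edgeR test. SPRY1 (chr4:123396795-123403760) had 20.1 ± 1.48 CPM with G1, 20.3 ± 0.458 CPM with G7 and 18.4 ± 0.846 CPM in NS (SD, n = 3), and neither comparison with NS was called (log2 0.13, adjusted p = 0.154 with G1, and 0.14, adjusted p = 0.191 with G7, in the edgeR test). Within the summed per-kb level of the 3 Sprouty genes, SPRY4 made up 46.8% ± 0.627 with G1, 44.3% ± 1.56 with G7 and 38.1% ± 2.84 in NS, while SPRY2 made up 26% ± 1.58 with G1, 31.9% ± 2.02 with G7 and 37.4% ± 2.46 in NS (SD, n = 3).

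SPRED proteins bring neurofibromin, which switches RAS off, to the membrane. SPRED2 (chr2:65310851-65432637) had 83.9, 83.0 and 84.5 CPM in G1 libraries, 77.6, 80.1 and 85.8 CPM in G7 libraries and 70.9, 74.7 and 69.8 CPM in NS libraries, with neither hairpin overlapping NS. It rose 1.17-fold with G1 (log2 0.22 ± 0.0498, adjusted p = 0.000825) and 1.13-fold with G7 (0.18 ± 0.0495, adjusted p = 0.0141) in the edgeR test. The G7 call ended without G7 replicate 3 (0.14, adjusted p = 0.0521) and without NS replicate 1 (0.17, adjusted p = 0.0511). SPRED1 (chr15:38252326-38357249) had 65.1, 63.4 and 61.9 CPM in G1 libraries, 70.4, 73.1 and 62.2 CPM in G7 libraries and 66.1, 59.5 and 56.3 CPM in NS libraries, and all groups overlapped. Its log2 values of 0.07 ± 0.0657 with G1 (adjusted p = 0.378) and 0.18 ± 0.0647 with G7 (adjusted p = 0.0541) were not called in the edgeR test. Without G7 replicate 3, its lowest G7 library, SPRED1 was called with G7 (0.25, adjusted p = 0.00293), as it was without NS replicate 1 (0.24, adjusted p = 0.0205), without the low-count filter (0.18, adjusted p = 0.0216) and with the replicate number as a block (0.18, adjusted p = 0.0234).

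ETV5 (chr3:186046308-186110318), the ERK-induced transcription factor of the set, had 69.8, 69.9 and 68.4 CPM in G1 libraries, 63.9, 63.1 and 64.6 CPM in G7 libraries and 53.4, 52.1 and 53.6 CPM in NS libraries. No groups overlapped, and the order was G1 above G7 above NS. ETV5 rose 1.31-fold with G1 (log2 0.39 ± 0.0464, adjusted p = 9.62e-07) and 1.21-fold with G7 (0.27 ± 0.0462, adjusted p = 0.000376) in the edgeR test. Its exons share 164 bases with DGKG on the same strand, a gene with 1360 counts over all 9 libraries. How reads on those bases were assigned is not given in the sources used here. Its antisense gene ETV5-AS1 was listed at 0.

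Counted together, 5 of the 10 genes rose with G1 (DUSP4, DUSP9, SPRY4, SPRED2 and ETV5), 1 fell (SPRY2) and 4 were not called. Of all tested genes 59.1% were called with G1, 30.4% higher and 28.7% lower. All G1 libraries lay above all NS libraries for 6 members and below them for 1, which held for 32.5% and 31.6% of all tested genes. The median log2 change of the 10 was 0.16, beside -0.01 over all tested genes. With G7, 6 rose (DUSP5, DUSP6, DUSP9, SPRY4, SPRED2 and ETV5), 0 fell and 4 were not called, where 22.7% of all tested genes were called, 13.1% higher and 9.64% lower. All G7 libraries lay above all NS libraries for 8 members and below them for 0, against 19.3% and 15.9% of all tested genes. The median log2 change was 0.22, beside 0.01 over all tested genes. Without G7 replicate 3 the counts were 6 higher with G1 and 7 higher with G7, where 8260 and 3321 genes were called in either direction. The genes called higher with both hairpins were DUSP9, SPRY4, SPRED2 and ETV5, and 11.6% of all tested genes were called higher with both. The comparisons share the 3 NS libraries. The members were chosen with earlier results of these data known, so setting them beside all tested genes is a description and no test. Most of these changes were small: against a change of 1.2-fold, edgeR's glmTreat called 2 members higher (DUSP9 and ETV5) and SPRY2 lower with G1. With G7 it called 0 members higher and 0 lower, and 3 members had an unadjusted p under 0.05 in that test, all higher. Of all 13264 tested genes it called 4122 with G1 and 297 with G7, in either direction. Against no change, 8 members had an unadjusted p under 0.05 with G7 in the edgeR test, all higher. In that test a listed gene with an unadjusted p of 0.0401 ranked 4331 of all 13264 tested genes, and another with 0.0688 ranked 5060. The number of all tested genes under 0.05, in either direction, thus lies between these ranks. For glmTreat the share of all tested genes at an unadjusted p under 0.05 was not counted. DESeq2 called 6 members higher and 0 lower with G7, where it called 2275 of all tested genes in either direction.

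**Figure D3:**
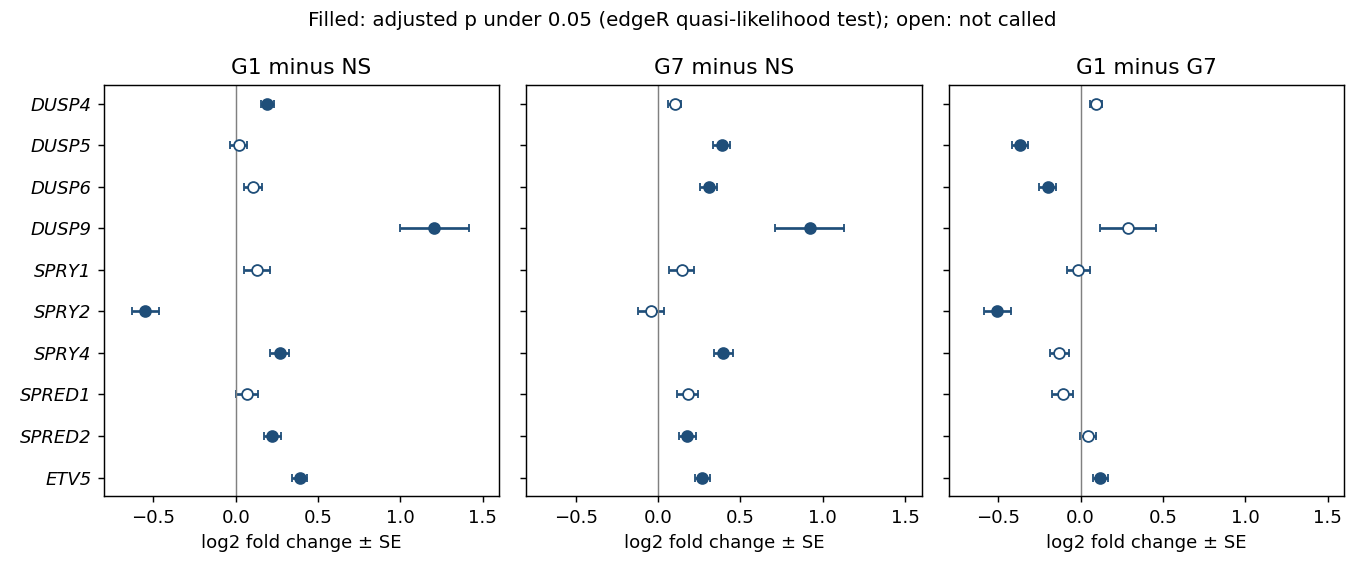
Log2 fold change with its standard error for each gene in the 3 comparisons, filled where the adjusted p was under 0.05. SPRY2 is the only member called lower against NS, and it is lower with G1, while DUSP5, DUSP6 and SPRY2 are called lower with G1 than with G7.

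The hairpins were then compared directly, as they left CBX5 at different levels. The hairpin used and the CBX5 level change together in this design and cannot be told apart. DUSP5, DUSP6 and SPRY2 were lower with G1 than with G7. The G1 minus G7 log2 difference was -0.37 ± 0.0489 for DUSP5 (adjusted p = 7.40e-06), -0.20 ± 0.0518 for DUSP6 (adjusted p = 0.00409) and -0.51 ± 0.0820 for SPRY2 (adjusted p = 6.50e-05) in the edgeR test. All G1 libraries lay below all G7 libraries for these 3 genes. ETV5 was higher with G1, by 0.12 ± 0.0445 (adjusted p = 0.0369 in the edgeR test), but this call ended without any 1 of the 3 G1 libraries or of G7 replicates 1 and 2 (0.11 to 0.13, adjusted p = 0.0596 to 0.0995), in DESeq2 (0.13, adjusted p = 0.0802) and with upper quartile scaling (0.06, adjusted p = 0.284). The values of the remaining 6 ran from -0.13 for SPRY4 (± 0.0567, adjusted p = 0.0728) to 0.29 for DUSP9 (± 0.170, adjusted p = 0.180) and were not called in the edgeR test. DUSP4, at 0.09 ± 0.0376 (adjusted p = 0.0528 in the edgeR test), was called with RLE scaling (0.10, adjusted p = 0.0379), in DESeq2 (0.10, adjusted p = 0.0373) and in 3 other alternatives. SPRED1 was called lower without G7 replicate 3 (-0.17, adjusted p = 0.0172) and with upper quartile scaling (-0.17, adjusted p = 0.0348). SPRY4 was called lower with upper quartile scaling (-0.19, adjusted p = 0.0136) and when only the 2 groups entered the edgeR fit (-0.13, adjusted p = 0.0407), and DUSP9 was called higher without G1 replicate 2 (0.46, adjusted p = 0.0368). In all, 1 of 10 was higher and 3 were lower, where 44.9% of all tested genes were called, 23.3% higher and 21.6% lower. G1 and G7 libraries did not overlap for 2 members higher and 4 lower with G1, against 27% and 26.6% of all tested genes.

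Of 6 other MAP kinase phosphatases, DUSP1 was listed at 0 in all libraries and 5 were tested. The strand setting and annotation release of the counting are not given, so the 0 of DUSP1 does not show that its RNA was absent. Of the 5 tested, 2 rose and 0 fell with G1 in the edgeR test (DUSP7 and DUSP2), where 30.4% of all tested genes were called higher. In DESeq2 1 rose with G1, where it called 6931 of all tested genes in either direction. With G7, 0 were called by edgeR or DESeq2, where edgeR called 22.7% of all tested genes. An unadjusted p under 0.05 was found for 2 in edgeR, both higher, and the share of all tested genes at that threshold was not counted. The DUSP2 call with G1 (log2 0.60, adjusted p = 0.0432 in the edgeR test) ended in 10 of 18 alternatives. DUSP7, a cytoplasmic ERK phosphatase close to DUSP6 and DUSP9, averaged 7.23 CPM in G1, 5.10 CPM in G7 and 3.98 CPM in NS libraries, a log2 change of 0.85 with G1 (adjusted p = 1.76e-05) and 0.35 with G7 (adjusted p = 0.0745) in the edgeR test. Of SPRY3, SPRED3 and ETV1, 2 fell with G1 (SPRED3 and SPRY3), where 28.7% of all tested genes were called lower. The SPRY3 call (-0.30, adjusted p = 0.0155 in the edgeR test) ended in 7 of 18 alternatives, DESeq2 among them. With G7, 0 were called by edgeR or DESeq2 and 0 had an unadjusted p under 0.05, where edgeR called 22.7% of all tested genes. ETV4 was listed at 0 in all libraries, with the same limit as DUSP1. SPRED3 averaged 2.67 CPM in G1 libraries, 4.402 CPM in G7 libraries and 5.11 CPM in NS libraries, a log2 change of -0.96 with G1 (adjusted p = 8.89e-05) and -0.23 with G7 (adjusted p = 0.293) in the edgeR test.

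Of 20 genes from the ERBB receptors to ERK, 9 rose and 6 fell with G1, where 30.4% of all tested genes were called higher and 28.7% lower. The 9 became 6 with upper quartile scaling and without G1 replicate 1, and 3 in glmTreat against 1.2-fold. The 6 lower ran from 5 to 7 over the alternatives. With G7, 4 rose and 3 fell, where 13.1% were called higher and 9.64% lower. The 4 became 2 without NS replicate 2 and without G7 replicate 1 or 2, and 3 in DESeq2. Against 1.2-fold, glmTreat called 0 of these genes higher and 0 lower with G7, where it called 297 of all tested genes. The median log2 changes were 0.07 with G1 and 0.02 with G7. The kinase gene BRAF averaged 37.5 CPM in G1, 47.0 CPM in G7 and 57.1 CPM in NS libraries and fell with both hairpins, by 0.61 and 0.28 on the log2 scale. The RAS exchange factor gene SOS1 fell by 0.48 with G1 and 0.23 with G7, and the phosphatase gene PTPN11, whose product SHP2 promotes RAS activation, rose by 0.43 with G1 and 0.23 with G7. Of 10 other negative regulators of the cascade, 4 rose and 4 fell with G1, and 3 rose and 1 fell with G7, beside the same shares of all tested genes. The 3 became 1 without NS replicate 1 and 2 in DESeq2, and glmTreat against 1.2-fold called 0 higher and 0 lower with G7. Over the alternatives with G1, 3 to 4 were higher and 3 to 5 lower, except in glmTreat against 1.2-fold (2 and 1). PEA15, whose product holds ERK in the cytoplasm, rose by 0.71 with G1 and 0.25 with G7, the G7 call ending without NS replicate 1 (0.21, adjusted p = 0.0593 in the edgeR test). ERRFI1, an inhibitor of EGFR induced by its signalling, rose by 0.33 with G1 and 0.18 with G7. LRIG1, another brake on ERBB receptors, averaged 1.81 CPM in G1, 4.32 CPM in G7 and 5.29 CPM in NS libraries, a log2 change of -1.54 with G1 (adjusted p = 2.20e-06) and -0.30 with G7 (adjusted p = 0.204) in the edgeR test.

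Among 14 other ERK-induced transcripts, 5 rose and 5 fell with G1, where 30.4% of all tested genes were called higher and 28.7% lower. The 5 higher became 3 without G1 replicate 1 and with upper quartile scaling. With G7, 7 rose and 1 fell, where 13.1% were called higher and 9.64% lower. The 7 became 4 to 6 in every other setting except glmTreat against 1.2-fold, which called 1. They were 4 without NS replicate 1 or 3, after thinning and in DESeq2. The 1 lower became 0 in those settings other than leaving out NS replicate 3, in glmTreat, and without NS replicate 2 or G7 replicate 1 or 2. HBEGF, a ligand of EGFR, averaged 6.17 CPM in G1, 18.9 CPM in G7 and 19.97 CPM in NS libraries, a log2 change of -1.69 with G1 (adjusted p = 4.13e-11) and -0.08 with G7 (adjusted p = 0.540) in the edgeR test. The immediate early genes EGR1 and FOS changed by -0.98 and -0.91 with G1 and had -0.05 and -0.11 with G7, where neither was called. EPHA2, a receptor gene induced by ERK, rose by 0.40 with G7 (adjusted p = 1.11e-05) and by 0.14 with G1 (adjusted p = 0.0216) in the edgeR test. The G1 call of EPHA2 ended with upper quartile scaling (0.05, adjusted p = 0.389) and without NS replicate 1 or 2 or G1 replicate 1 (0.12 to 0.14, adjusted p = 0.0630 to 0.0855).

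**Figure D4:**
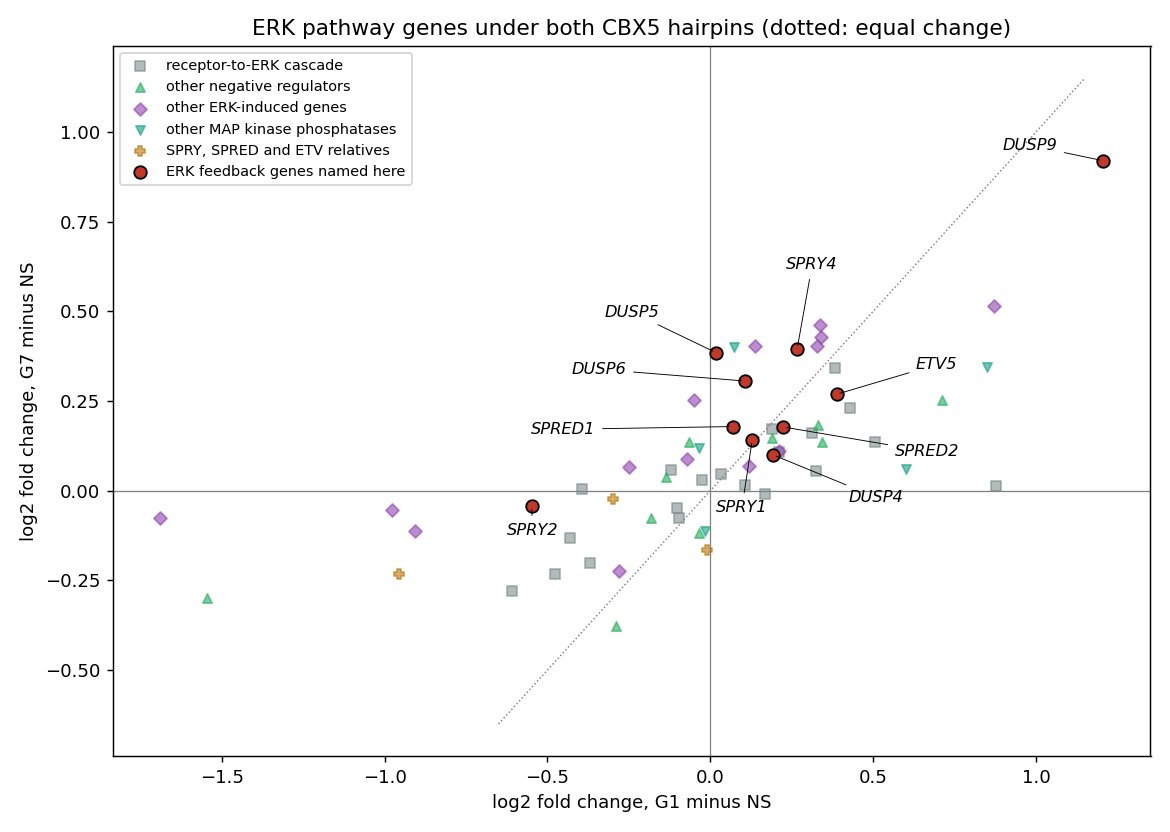
Log2 fold change against NS with G1 (horizontal) and with G7 (vertical) for the 10 genes and the other tested genes of the ERK pathway lists, with a dotted line where both are equal. DUSP5, DUSP6 and SPRY4 lie above the line and SPRY2 far to its left, at -0.55 with G1 and -0.04 with G7. SPRED1 and SPRY1 also lie above the line, by less than SPRY4. Both axes use the same 3 NS libraries.

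By distance in the plane of both log2 changes, the genes closest to DUSP6 among 71 tested genes of all the lists used here were DUSP8 (0.0994), EPHA2 (0.102) and DUSP5 (0.118). DUSP8 itself was not called with either hairpin, and its standard errors (0.253 with G1 and 0.235 with G7) exceed its distance. The genes closest to SPRY4 were IER3 (0.0613), EREG (0.0793) and AREG (0.0978). Both orders lie within error: the standard errors of EREG (0.141 with G1 and 0.136 with G7) and AREG (0.171 and 0.164) exceed their distances too. IER3, an early response gene, had log2 changes of 0.33 with G1 and 0.40 with G7, and EREG and AREG, which encode ligands of EGFR, had 0.34 and 0.34 with G1 and 0.43 and 0.46 with G7. AREG was not called with G1, and its G7 call (adjusted p = 0.0497 in the edgeR test) ended in 16 of 18 alternatives. The EREG call ended in 12 of 18 alternatives with G1 and in 7 with G7, DESeq2 among them for both hairpins (0.34, adjusted p = 0.141 with G1, and 0.42, adjusted p = 0.125 with G7).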

How the data were processed

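RNA of 9 libraries, 3 per group, was made into strand-specific libraries after oligo-dT selection, per the labels' protocols. The authors deposited raw counts per gene. TopHat2 2.1.0, HTSeq 0.6.0 and GRCh38 are named in the submitters' processing notes, which give no annotation release or strand setting. Gene names and exon lengths came from GENCODE release 29, which held 57055 of 60675 rows, and the other rows held 0.025% of counts. Low genes were removed with edgeR's filterByExpr (edgeR 4.0.16, R 4.3.3), libraries were TMM-scaled, and all 3 groups entered 1 quasi-likelihood fit with no covariate. P-values were adjusted by Benjamini-Hochberg over 13264 genes, and an adjusted p under 0.05 was called. The SE is the log2 change divided by the square root of F. The fit was tested on simulated data. A count of 3 equals 0.134 to 0.236 CPM, depending on the library. The members and lists were chosen with earlier results of these data known. Named genes were the members, CBX5, up to 4 genes of each other list with the smallest p against NS, and the 3 listed genes nearest DUSP6 and nearest SPRY4. A gene that this rule picked is not reported here. The listed and overlapping genes named at 0 counts, and DGKG and the marker genes, were chosen after their values were seen. Alternatives included DESeq2 1.42.0, other scalings, no low-count filter, thinning and leaving out each library.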

Additional observations from a re-analysis of the deposited data

Results flagged for a closer look

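For 4 genes the G1 effect differed from the G7 effect in the direct test of the hairpins against each other, which needs no control library. The log2 difference, G1 minus G7, was -0.367 for DUSP5, -0.20 for DUSP6, -0.505 for SPRY2 and 0.119 for ETV5. The ETV5 difference is the one of these that did not hold when single libraries were left out. In these data 44.9% of all tested genes differed between the hairpins.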

How the results depend on the processing

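Across 540 values of the 10 genes under alternatives, 492 kept their direction and their side of the threshold, 20 lost a call, 18 gained one and 10 changed sign, the last all among values not called. Against 1.2-fold, glmTreat called 4122 genes for G1 against NS, 297 for G7 against NS and 2038 for G1 against G7, in either direction. It called 2, 0 and 0 members higher and 1, 0 and 2 lower, the last 2 being DUSP5 and SPRY2. For G1 against G7, 2 members were higher with RLE scaling, without the low-count filter and without mitochondrially encoded genes, and 0 with upper quartile scaling, which called 5 lower. Leaving out single libraries gave 0 to 2 members higher. Upper quartile scaling moved the median log2 change of all genes to -0.098 for G1 against NS. Under it DUSP5 was -0.069, SPRED1 -0.017 and DUSP8 -0.013 for G1 against NS, and SPRED2 was -0.014 for G1 against G7. DUSP5 for G1 against NS was -0.007 after thinning, and SPRY1 for G1 against G7 was 0.016 without the low-count filter. With single libraries left out, DUSP5 ran from -0.003 to 0.043 and DUSP8 from -0.12 to 0.23 with G1, and with G7 SPRY2 ran from -0.11 to 0.017, DUSP2 from -0.20 to 0.21, SPRY3 from -0.063 to 0.002 and EGR1 from -0.12 to 0.006. SPRY1 for G1 against G7 ran from -0.053 to 0.061. The causes were not tested. Same-numbered replicates did not deviate together (r from -0.0763 to 0.199, over 0.1 in 2 of 9 pairs, and 4 of 9 libraries correlated best with their own number). With the replicate number as a block, 7909, 3117 and 6069 genes were called, with 5, 7 and 1 members higher. DUSP9, on at most 82 counts per library, is the member whose precision depth limits most.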
